A study of Mus musculus with 10 samples.

Results

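The lysyl oxidases, lysyl hydroxylases and collagen galactosyltransferases are the enzymes that cross-link collagen and prepare its lysines for cross-linking. They were taken from the femur transcriptome by gene symbol as Lox, Loxl1, Loxl2, Loxl3, Loxl4, Plod1, Plod2, Plod3, Colgalt1 and Colgalt2, 10 of the 38962 genes of the count table. The RNA came from flushed and pulverized femurs of male C57BL/6J mice, with 1 library per mouse, and 5 mice aged 2 months (young) were compared with 5 mice aged 22 months (aged). No treatment or genetic change is given for either group. Young animals were bought from the Jackson Laboratory, aged ones from the National Institute on Aging colony, so supplier and age cannot be told apart. Because whole bone was sequenced, fewer cells of a type and less RNA per cell cannot be told apart either.

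Lysyl oxidases are copper-dependent enzymes that oxidise lysine and hydroxylysine side chains of collagen and elastin to aldehydes outside the cell. The aldehydes then condense with neighbouring chains into the covalent cross-links that give bone matrix its tensile strength. Earlier, in the endoplasmic reticulum, lysyl hydroxylases (the Plod genes) turn chosen lysines of the procollagen chain into hydroxylysines, and the galactosyltransferases COLGALT1 and COLGALT2 attach sugar to some of these. Whether a lysine is hydroxylated before it is oxidised determines the chemical type of the cross-link that forms.

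The libraries held 33447009 to 40395050 counts in young mice and 31788232 to 45075335 in aged mice. A single noncoding RNA, Gm26917, took 14.5 to 24.0% of the counts in young mice and 16.1 to 31.0% in aged mice, and without it the same 4 enzymes were called as in the results that follow. All 10 enzymes passed the filter on low counts, as did 22088 genes in all. Bone markers were well represented, with the osteoblast product osteocalcin (Bglap) at 345.5 ± 124.0 CPM (read counts normalised to the TMM-scaled library size) in young mice and 89.8 ± 60.6 in aged mice (SD, n = 5 mice per group here and throughout). Of 8 osteoblast markers 4 were lower in aged bone, and their summed level was 3429 to 6778 CPM in young mice and 963 to 3621 in aged mice. Of 8 measured chondrocyte markers 5 were lower, with summed levels of 168.4 to 1046 CPM and 196.8 to 552 CPM, and Matn1 and Matn3 did not pass the filter. Most of these sums was Col2a1, which was not called (447.4 ± 285.5 CPM in young and 302.2 ± 142.1 in aged mice). The median log2 fold change of the measured chondrocyte markers was -3.00, with Acan at 44.5 ± 17.4 CPM in young and 4.77 ± 3.39 in aged mice. Of 5 osteocyte markers 1 was higher (Fgf23), of 6 endothelial markers 1 was lower (Emcn), and those of tendon and periosteum (6), red cell precursors (7), neutrophils (7) and adipocytes (4) did not pass. Skeletal muscle markers made up 1.01 to 2.32% of the counts in young mice and 1.26 to 2.83% in aged mice, and the 11 measured did not pass. The part of the osteoblast and chondrocyte differences in the results that follow was not tested.

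In aged bone 4 of the 10 enzymes were lower, namely Lox, Loxl1, Loxl2 and Plod1. Over all genes tested 3.61% were lower and 3.68% were higher at the same threshold (adjusted p of at most 0.05, quasi-likelihood test of edgeR, Benjamini-Hochberg adjustment over 22088 genes, used below for every adjusted p without another name). None of the 10 was higher. At an unadjusted p under 0.05 in the same test 0 were higher, against 2948 of the 22088 genes tested. At that cut-off 4 of 5 lysyl oxidases, 2 of 3 lysyl hydroxylases and 2 of 2 galactosyltransferases were lower, against 2731 of all genes. DESeq2 and limma-voom also called 0 enzymes higher, against 1546 and 731 genes in all. For Lox, Loxl1, Loxl2 and Plod1 every young mouse was above every aged mouse, which held for 4.12% of all genes tested. The median log2 fold change of all genes was 0.01. With total counts in place of TMM scaling the median was -0.16, with 917 genes lower and 285 higher, and 5 enzymes were lower. The values of each mouse are drawn in the plot of CPM by library.

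**Figure D1:**
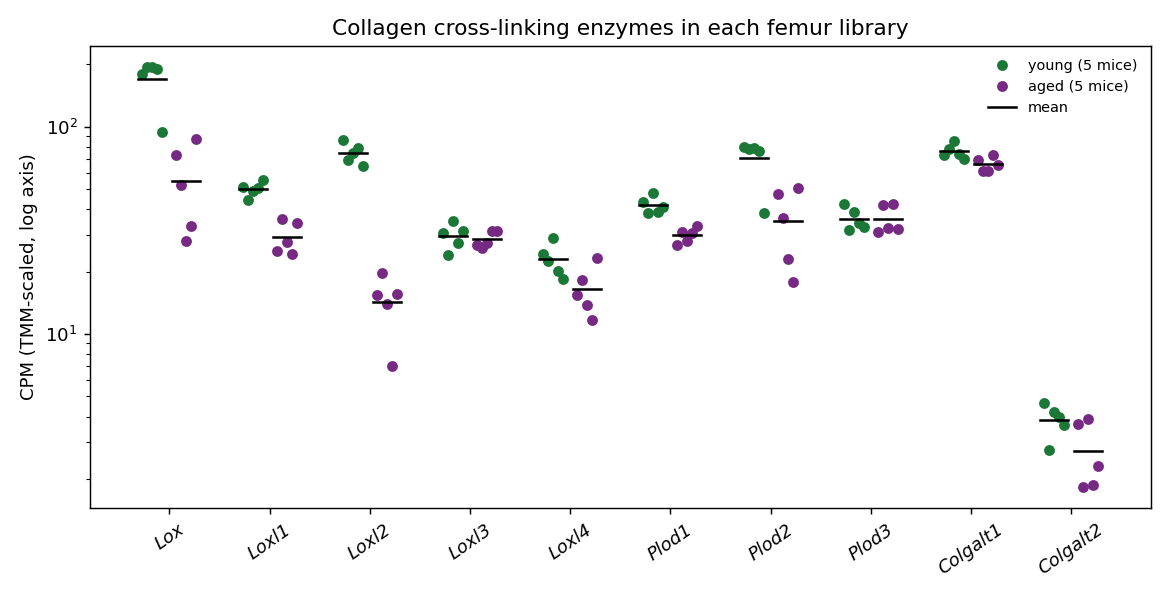
CPM of the 10 enzymes in each femur library (log axis), with young mice in green, aged mice in purple and the group mean as a bar. The young and aged points of Lox, Loxl1, Loxl2 and Plod1 do not overlap, and young mouse 5 lies far below the other young mice for Lox (93.9 CPM) and Plod2 (38.3 CPM).

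Among the lysyl oxidases, the fall was steepest for Loxl2, a family member with scavenger receptor domains that also acts on basement membrane collagen. Loxl2 (ENSMUSG00000034205.16, GRCm38 chromosome 14, 69609068 to 69695834, plus strand) was at 86.6, 69.3, 74.7, 78.8 and 64.3 CPM in young mice and at 15.3, 19.6, 13.9, 7.01 and 15.6 CPM in aged mice. The lowest young mouse was thus more than 3 times the highest aged mouse. The mean fell from 74.7 ± 8.59 to 14.3 ± 4.601 CPM, 5.22-fold (log2 fold change -2.38, SE 0.22, 95% interval -2.85 to -1.92, adjusted p = 1.4e-04).

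Lox, the founding member and the main oxidase of fibrillar collagen, lies on chromosome 18 from 52516067 to 52529867 on the minus strand (ENSMUSG00000024529.14). It was at 180.1, 193.5, 194.1, 189.1 and 93.9 CPM in young mice and at 73.1, 52.2, 28.05, 33.1 and 86.7 CPM in aged mice. Young mouse 5 stood close to the highest aged mouse, and the other young mice lay together far above both. The mean fell from 170.1 ± 43.0 to 54.6 ± 25.2 CPM (log2 fold change -1.64, SE 0.32, 95% interval -2.33 to -0.94, adjusted p = 0.0121). Without young mouse 5 the log2 fold change was -1.79, and with mean muscle marker expression as a covariate it was -1.67 (adjusted p = 0.0338). With a wider list of 23 muscle genes as the covariate it was -1.70 and the call ended (adjusted p = 0.0511).

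Loxl1, which is needed for elastic fibre upkeep, lies on chromosome 9 from 58287738 to 58313186 on the minus strand (ENSMUSG00000032334.10). Its level was 51.4, 44.3, 48.8, 50.4 and 55.0 CPM in young mice and 25.1, 35.8, 27.6, 24.2 and 34.2 CPM in aged mice. The fall was 1.70-fold, and the mice of each group lay close together (49.98 ± 3.92 to 29.4 ± 5.32 CPM, log2 fold change -0.77, SE 0.12, adjusted p = 0.00296).

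Loxl3 and Loxl4 were not called. Loxl3 (ENSMUSG00000000693.10, chromosome 6, 83034173 to 83052562, plus strand), a scavenger receptor type oxidase, was at 24.1 to 35.04 CPM in young mice and 26.1 to 31.4 CPM in aged mice. Its log2 fold change was -0.06 with a 95% interval of -0.29 to 0.18 (adjusted p = 0.789), and 535 of its exonic bases also belong to Htra2 on the opposite strand. Loxl4 (ENSMUSG00000025185.14, chromosome 19, 42593982 to 42612813, minus strand), of the same type, was at 18.3 to 29.0 CPM in young mice and 11.7 to 23.2 CPM in aged mice. The log2 fold change was -0.47 (95% interval -0.85 to -0.10, adjusted p = 0.114), and the 2 groups overlapped through aged mouse 5, without which it was -0.63 (adjusted p = 0.0376).

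The enzymes share a copper-binding site of 4 histidines, and its coding sequence was compared between them. The sites of the other members are shown 5′ to 3′ over 11 codons, with the histidine codons in capitals. They were read from GENCODE vM21 transcripts (GRCm38), and each spans a splice junction, so the genomic interval includes an intron. The Loxl1 site covers codons 476 to 486 of 607 in exons 3 and 4 of 7 (chr9:58293720-58294381, minus strand), that of Loxl2 codons 622 to 632 of 776 in exons 10 and 11 of 14 (chr14:69682316-69689037, plus strand). The Loxl3 site covers codons 602 to 612 of 754 in exons 10 and 11 of 14 (chr6:83049995-83050125, plus strand), and that of Loxl4 codons 607 to 617 of 758 in exons 11 and 12 of 15 (chr19:42598807-42599899, minus strand).
Loxl1: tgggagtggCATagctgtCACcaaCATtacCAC
Loxl2: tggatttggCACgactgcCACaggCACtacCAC
Loxl3: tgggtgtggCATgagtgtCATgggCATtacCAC
Loxl4: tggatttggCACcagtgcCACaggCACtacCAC
Loxl2 and Loxl4 were identical at 31 of 33 bases and at 10 of the 11 encoded residues, while Loxl1 differed from each of Loxl2, Loxl3 and Loxl4 at 3 residues, with 8 in common. Loxl3 had 8 residues in common with each other member. The sites of Lox and Loxl1 encode the same 11 residues. Of these close pairs, Lox and Loxl1 were both lower in aged bone, whereas Loxl2 fell by 2.38 on the log2 scale and Loxl4 was at -0.47 and did not pass.

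Per kilobase of gene length, which allows levels to be compared between genes, Lox stood highest in young bone at 35.6 ± 9.002 CPM per kb. Loxl1 followed at 15.2 ± 1.19 and Loxl2 at 13.8 ± 1.59, a pair that did not differ beyond its spread, and Loxl3 (6.46 ± 0.897) and Loxl4 (5.43 ± 0.980) were lowest. In aged bone the order was Lox (11.4 ± 5.28), Loxl1 (8.91 ± 1.61), Loxl3 (6.22 ± 0.554), Loxl4 (3.91 ± 1.06) and Loxl2 (2.65 ± 0.851). Loxl2 thus moved from the third to the last place, below Loxl4 in each of the 5 aged mice, while the levels of Lox and Loxl1 lay within their spread. The sum over the 5 oxidases was 76.5 ± 9.83 CPM per kb in young mice, from 59.4 to 83.7, and 33.1 ± 7.68 in aged mice, from 25.1 to 43.8.

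As a share of that sum, Loxl2 made up 16.5 to 20.01% in young mice and 5.16 to 10.3% in aged mice. The share of Loxl3 was 6.76 to 11.5% in young mice and 15.6 to 27.0% in aged mice, and that of Loxl4 was 5.97 to 8.22% and 10.4 to 12.6%. The 3 shares did not overlap between the ages, whereas those of Lox (33.1 to 52.4% and 22.5 to 43.4%) and Loxl1 (17.4 to 28.1% and 21.6 to 32.1%) did. Shares of 1 sum are bound to each other, so a larger share of Loxl3 does not stand for a higher level.

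**Figure D2:**
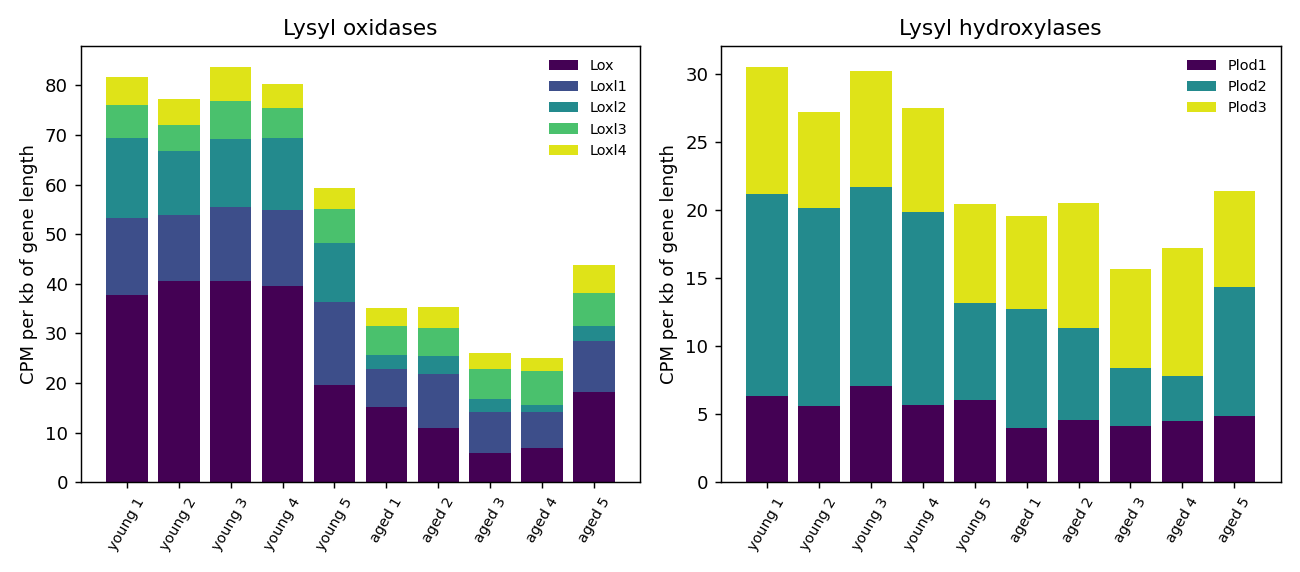
Level per kilobase of gene length of the 5 lysyl oxidases (left) and the 3 lysyl hydroxylases (right) in each library, stacked by gene. The stacked oxidases reach 59.4 to 83.7 CPM per kb in young mice and 25.1 to 43.8 in aged mice, and the Loxl2 band shrinks to 5.16 to 10.3% of the sum in aged mice.

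Ratios of 2 members within a library, which no library scaling can alter, were compared for 6 pairs by an exact two-sided permutation test with Benjamini-Hochberg adjustment over the 6. Loxl4 over Lox, as a ratio of counts, was 0.136, 0.116, 0.150, 0.107 and 0.195 in young mice and 0.211, 0.348, 0.490, 0.355 and 0.268 in aged mice. Every aged mouse was above every young mouse (difference in mean log2 ratio 1.22, exact p = 0.00794, the smallest 5 mice against 5 can give, adjusted exact p = 0.0476). Without young mouse 2, 3 or 4 the adjusted exact p was 0.0714. Loxl1 over Lox was 0.324 ± 0.148 in young mice and 0.628 ± 0.263 in aged mice (difference 0.94, adjusted exact p = 0.0952), and Loxl2 over Lox was 0.465 ± 0.131 and 0.295 ± 0.136 (difference -0.73, adjusted exact p = 0.131). Neither ratio passed over the 10 libraries, so the size of the fall in Loxl2 was not shown to differ from that in Lox. Loxl1 over Lox kept this outcome under 10 of 12 alternatives (smallest adjusted exact p = 0.0476). Loxl2 over Lox kept it under 11 of 12 (smallest adjusted exact p = 0.0317).

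Of the lysyl hydroxylases Plod1 was lower in aged bone, Plod3 was near 0 change, and Plod2 fell short of the threshold. Plod1 encodes LH1, which hydroxylates lysines of the collagen triple helix (ENSMUSG00000019055.15, chromosome 4, 147909753 to 147936767, minus strand). It was at 43.1, 38.2, 47.9, 38.7 and 41.1 CPM in young mice and at 27.0, 31.0, 28.2, 30.5 and 33.2 CPM in aged mice. The difference was small but the groups did not overlap (41.8 ± 3.96 to 29.99 ± 2.45 CPM, log2 fold change -0.48, SE 0.10, 95% interval -0.69 to -0.27, adjusted p = 0.0109).

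Plod2 encodes LH2, which hydroxylates lysines of the telopeptides and so directs cross-links towards the hydroxylysine aldehyde type found in bone (ENSMUSG00000032374.14, chromosome 9, 92542223 to 92608428, plus strand). It was at 79.8, 78.0, 78.6, 76.3 and 38.3 CPM in young mice and at 47.1, 36.3, 23.0, 17.8 and 50.7 CPM in aged mice. In 4 young mice the level was nearly the same and above every aged mouse, while young mouse 5 fell among the aged mice. The mean was 70.2 ± 17.9 CPM in young mice and 34.996 ± 14.5 in aged mice (log2 fold change -1.004, SE 0.30, 95% interval -1.65 to -0.36, adjusted p = 0.0623). Without young mouse 5 the log2 fold change was -1.16 and passed (adjusted p = 0.0342), as it did without aged mouse 1 (-1.13, adjusted p = 0.0433). It also passed with DESeq2 (-1.0005, adjusted p = 0.00665). Under 16 of 21 alternatives it did not pass, among them no filter on low counts (adjusted p = 0.165) and the muscle marker covariate (adjusted p = 0.116).

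Plod3 encodes LH3, which hydroxylates lysine and also carries glycosyltransferase activity (ENSMUSG00000004846.10, chromosome 5, 136987019 to 136996648, plus strand). It was at 42.2, 31.9, 38.6, 34.3 and 32.9 CPM in young mice and at 30.98, 41.7, 32.6, 42.5 and 32.01 CPM in aged mice. The 95% interval of its log2 fold change reached from -0.26 to 0.26, and 538 of its exonic bases overlap Mir702 or, on the opposite strand, Znhit1. Exonic bases were also shared by Loxl2 (308, with Gm27177 and Mir6950), Plod2 (346, with Gm38391) and Lox (30, with AC161119.1). Whether strand was used in counting is not known from the sources at hand.

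Plod3 over Plod1 was 0.979, 0.836, 0.805, 0.886 and 0.800 in young mice and 1.15, 1.34, 1.16, 1.39 and 0.964 in aged mice. All but aged mouse 5 were above every young mouse (difference in mean log2 ratio 0.47, exact p = 0.0159, adjusted exact p = 0.0476). Without young mouse 2, 3 or 4 or aged mouse 4 the adjusted exact p was 0.0714. Plod2 over Plod1 was 1.69 ± 0.449 in young mice and 1.17 ± 0.481 in aged mice (difference -0.59, adjusted exact p = 0.162). Per kilobase, Plod2 was highest of the 3 hydroxylases in young bone (13.02 ± 3.32 CPM per kb), with Plod3 at 7.96 ± 0.956 and Plod1 at 6.18 ± 0.586. In aged bone Plod3 (7.96 ± 1.25) and Plod2 (6.49 ± 2.68) lay within their spread and Plod1 was at 4.43 ± 0.362 CPM per kb.

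The 250 bases before the start of Plod1 and Plod3 are shown, from RefSeq on GRCm38.p6. They run 5′ to 3′ on the strand of the gene (Plod1 chr4:147936777-147937026, minus strand, and Plod3 chr5:136986769-136987018, plus strand). The capitals mark ACGTG and GCGTG on either strand, the 2 forms of the core hypoxia response element. RefSeq promoters were matched for 4 of the 10 enzymes, namely Plod1, Plod3, Colgalt1 and Loxl4.
Plod1: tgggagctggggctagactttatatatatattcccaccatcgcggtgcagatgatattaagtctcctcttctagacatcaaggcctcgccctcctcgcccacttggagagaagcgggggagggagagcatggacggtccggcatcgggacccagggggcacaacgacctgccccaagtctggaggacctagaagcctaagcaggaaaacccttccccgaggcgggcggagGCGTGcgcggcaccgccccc
Plod3: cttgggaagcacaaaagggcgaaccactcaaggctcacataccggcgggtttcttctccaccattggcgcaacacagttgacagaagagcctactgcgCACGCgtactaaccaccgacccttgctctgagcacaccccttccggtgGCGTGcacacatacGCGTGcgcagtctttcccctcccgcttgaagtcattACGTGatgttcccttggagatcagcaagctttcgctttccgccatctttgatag
Motifs were counted on both strands over these 250 bases. The Plod3 window held 1 ACGTG and 3 GCGTG, and that of Plod1 held 1 GCGTG. Among the other matched windows, which are not shown, those of Colgalt1 held 2 and 1 GCGTG and that of Loxl4 held 1, with 0 ACGTG in each. Of 32851 promoters of the same length, 16.6% held ACGTG and 28.2% held GCGTG. The Plod1 window also held GGGCGG at 2 places and TATAAA at 1, where 32.7% and 12.4% of all promoters held at least 1 of each. The Plod3 window held CCAAT, as did 33.8%. These matches describe letters only, and their relation to expression was not tested.

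The galactosyltransferases were not called. Colgalt1, the broadly expressed enzyme that attaches galactose to hydroxylysine (ENSMUSG00000034807.9, chromosome 8, 71610998 to 71624911, plus strand), was at 70.0 to 84.9 CPM in young mice and 61.0 to 72.9 CPM in aged mice. Its log2 fold change was -0.21 (95% interval -0.40 to -0.01, adjusted p = 0.173). Colgalt2, its less abundant relative (ENSMUSG00000032649.14, chromosome 1, 152399830 to 152510695, plus strand), was at 2.75 to 4.67 CPM in young mice and 1.83 to 3.91 CPM in aged mice (log2 fold change of -0.51, 95% interval -1.02 to -0.01, adjusted p = 0.190). Colgalt1 held 93.9 to 96.6% of the level per kilobase of the pair in young mice and 93.9 to 97.4% in aged mice, and the test of their ratio did not pass (difference in mean log2 ratio -0.34, adjusted exact p = 0.294). With 495 bases of Colgalt1 exons shared with Unc13a on the opposite strand, the part of that gene in its counts is unknown.

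The enzymes were then set against Col1a1, the main chain of bone collagen and so the bulk of their substrate. Col1a1 (chromosome 11, 94936224 to 94953042) was at 49895, 32490, 59885, 37783 and 27822 CPM in young mice and at 14165, 14878, 12561, 17875 and 29557 CPM in aged mice. Aged mouse 5 lay above young mouse 5, and all other aged mice lay below every young mouse. The mean fell 2.33-fold (log2 fold change -1.22, SE 0.30, adjusted p = 0.0267). This call ended without young mouse 1, 3 or 4 or aged mouse 1, 2 or 3 (adjusted p of 0.0513 to 0.0640), and with no filter on low counts (0.0513). Col1a2, its partner chain, fell by 1.30 on the log2 scale (adjusted p = 0.0170).

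Relative to the Col1a1 count of each library, Loxl2 was the 1 enzyme of the 10 that was lower in aged bone, against 0.204% of all genes. Per 1000 Col1a1 counts, Loxl2 was at 1.73, 2.13, 1.25, 2.09 and 2.31 in young mice and at 1.08, 1.32, 1.11, 0.392 and 0.528 in aged mice. Young mouse 3 lay just below aged mouse 2, and the other mice were separated by age. The fall relative to Col1a1 was 1.10 on the log2 scale (log2 fold change -1.10, SE 0.33, 95% interval -1.76 to -0.45, adjusted p = 0.00170). With Sparc, another abundant osteoblast transcript, in place of Col1a1 it was -0.69 and did not pass (adjusted p = 0.0834). Sparc itself was lower in aged bone (log2 fold change -1.54, adjusted p = 0.0121), against -1.22 for Col1a1.

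Lox did not differ detectably relative to Col1a1. It was at 3.61, 5.96, 3.24, 5.01 and 3.37 per 1000 Col1a1 counts in young mice and at 5.16, 3.51, 2.23, 1.85 and 2.93 in aged mice, with groups that overlapped widely. The log2 fold change was -0.43 (95% interval -1.07 to 0.21, adjusted p = 0.194). Plod2 was at 1.31 to 2.40 per 1000 Col1a1 counts in young mice and 0.995 to 3.33 in aged mice (log2 fold change of 0.24, 95% interval -0.40 to 0.88), and Loxl1 at 0.814 to 1.98 and 1.16 to 2.41 (log2 fold change of 0.45, 95% interval -0.20 to 1.09).

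The other 6 enzymes, Loxl3, Loxl4, Plod1, Plod3, Colgalt1 and Colgalt2, were higher relative to Col1a1, but so were 86.0% of all genes on this scale, whose reference fell 2.33-fold. Plod3 rose most on this scale, from 0.912 ± 0.196 to 2.21 ± 0.670 per 1000 Col1a1 counts (log2 fold change of 1.28, adjusted p = 3.8e-04), followed by Loxl3 (1.19, adjusted p = 8.4e-04) and Colgalt1 (1.04, adjusted p = 0.00261). Loxl4, Plod1 and Colgalt2 had log2 fold changes of 0.76 to 0.84, and their calls ended with the muscle markers as a covariate (adjusted p of 0.102, 0.0630 and 0.166) and without several single mice. The 2 ages overlapped for each of the 10 enzymes on this scale, and young mouse 5 and aged mouse 5 had nearly equal Col1a1 levels.

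**Figure D3:**
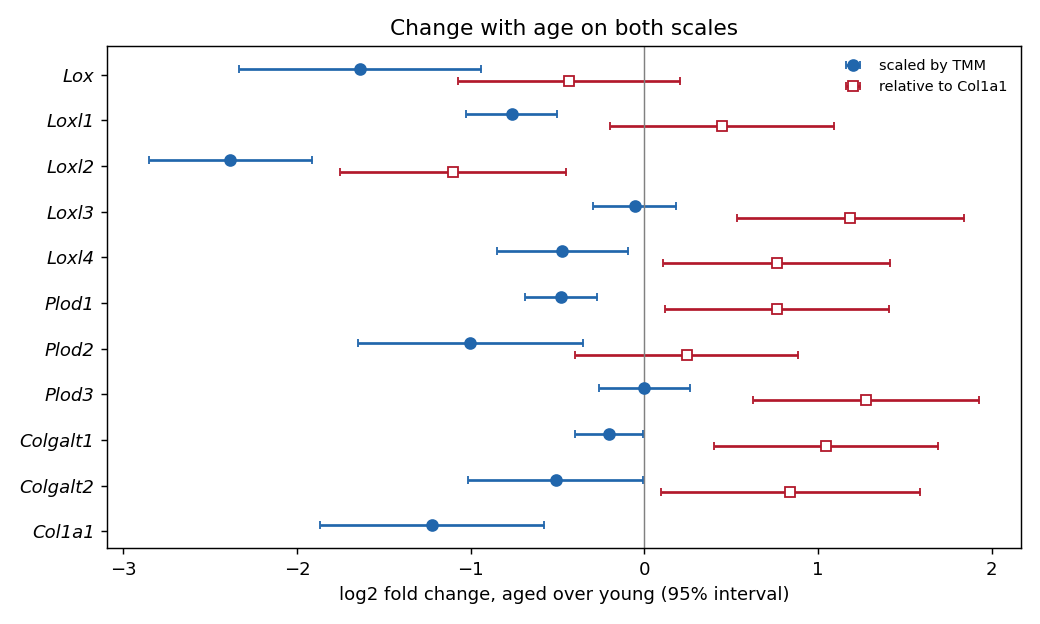
Log2 fold change of aged over young mice with its 95% interval for each enzyme, scaled by TMM (blue circles) and relative to Col1a1 in the same library (red squares). Loxl2 lies below 0 on both scales (-2.38 and -1.10), Lox is at -1.64 and -0.43, and Plod3 is at 0 and 1.28.

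**Figure D4:**
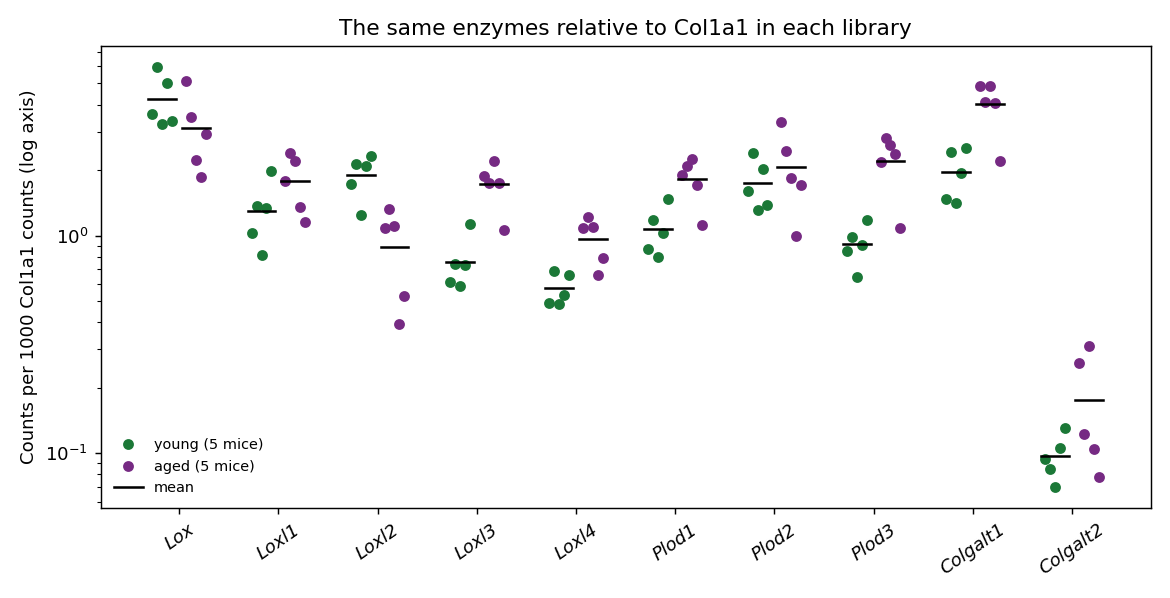
Counts of each enzyme per 1000 Col1a1 counts of the same library (log axis), with young mice in green, aged mice in purple and the mean as a bar. Loxl2 means are 1.90 in young and 0.886 in aged mice, whereas Plod3 means are 0.912 and 2.21.

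Within the age groups, Lox and Plod2 moved together from mouse to mouse. Over the 10 libraries the deviations of their log2 CPM from the age means had a Pearson correlation of 0.957 (Spearman 0.879), which was 0.939 without young mouse 5 and 0.965 without the 2 libraries farthest from the median of Lox. With Col1a1 the correlation was 0.594 for Lox (Spearman 0.576) and 0.295 without the 2 farthest libraries. Plod1 and Col1a1 were at 0.806 (Spearman 0.685), 0.759 without the 2 farthest. Loxl2 was at 0.088 with Col1a1, and Plod2 with Loxl2 went from 0.713 to 0.225 without the 2 farthest libraries. These values describe 10 libraries that share depth and tissue composition, and no test was made.

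**Figure D5:**
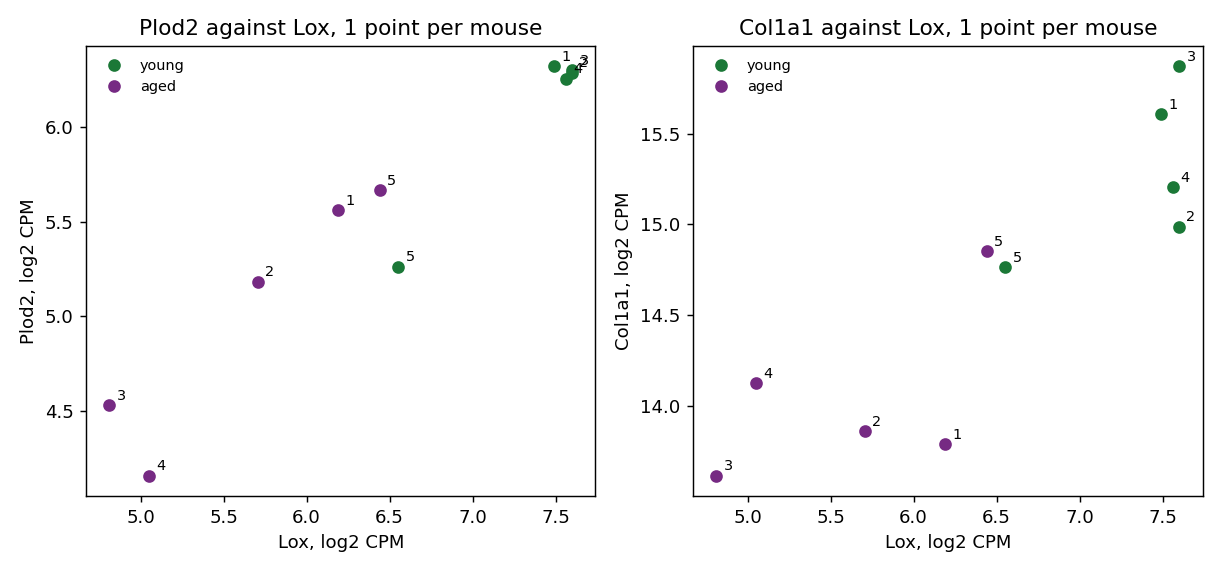
Log2 CPM of Plod2 (left) and Col1a1 (right) against that of Lox, with 1 point per mouse, young in green and aged in purple, numbered by replicate. Young mouse 5 lies beside the aged mice in the left panel and beside aged mouse 5 alone in the right. Plod2 follows Lox more closely (within-age Pearson correlation 0.957) than Col1a1 does (0.594).

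Among 17042 genes with a mean of at least 1 CPM, those whose deviations were most like Lox were Rapgef4 (Pearson correlation 0.977), Zfp37 and Gask1b (both 0.976). For Plod2 they were Zfp37 (0.984), Snai2 (0.9755) and Zfp354c (0.962), so Zfp37 stood on both lists. For Loxl2 they were Lrrc15 (0.963), Nsg1 (0.959) and Tpbg (0.958). Lrrc15 also fell in aged bone (log2 fold change of -2.52, adjusted p = 3.2e-04), as did Nsg1 (-0.79, adjusted p = 0.0177) and Zfp354c (-0.90, adjusted p = 0.00860). The other 5 did not pass, with Rapgef4 at 0.07, Zfp37 at -0.13, Gask1b at -0.69, Tpbg at -0.21 and Snai2 at -0.86 on the log2 scale (adjusted p of 0.0655 to 0.807).

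The genes that act beside these enzymes were grouped by role. Of 15 procollagen prolyl hydroxylases and chaperones, 8 fell, 1 rose and 6 did not pass, with a median log2 fold change of -0.64. P4ha3, a catalytic subunit of prolyl 4-hydroxylase, had the smallest p (-2.03, adjusted p = 2.3e-04), followed by the prolyl isomerase Fkbp14 (-1.09, adjusted p = 0.00129) and P3h3, a prolyl 3-hydroxylase family member that assists LH1 (-0.60, adjusted p = 0.00393). Fkbp10, whose product FKBP65 is needed for telopeptide hydroxylation by LH2, fell by 0.98 on the log2 scale (adjusted p = 0.0113), and the procollagen chaperone Serpinh1 by 1.37 (adjusted p = 0.0158). P3h4, another partner of LH1, fell by 0.79 (adjusted p = 0.0163). The 1 gene that rose was Tmem38b, an endoplasmic reticulum cation channel (0.69, adjusted p = 0.0134).

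Of 13 propeptide proteinases and fibril partners of lysyl oxidases, 6 were lower and 7 did not pass (median -0.72). Lower were the N-propeptide proteinases Adamts2 (-0.86, adjusted p = 0.00157) and Adamts3 (-0.72, adjusted p = 0.00216) and Postn, a matricellular protein that aids lysyl oxidase activation (-2.24, adjusted p = 0.00186). Also lower were Pcolce (-0.91, adjusted p = 0.00674), Fn1 (-0.85, adjusted p = 0.0230) and Tll1 (-0.86, adjusted p = 0.0482). Bmp1, the proteinase that releases active lysyl oxidase from its precursor, was at 165.6 ± 32.03 CPM in young mice and 152.0 ± 39.8 in aged mice (log2 fold change of -0.12, adjusted p = 0.688).

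Of 5 genes of copper supply, 1 was lower and 4 did not pass (median -0.21). The copper importer Slc31a1 fell by 0.59 on the log2 scale (adjusted p = 0.0120), and the copper pump Atp7b was at -0.51 (adjusted p = 0.0502). Atp7a, the pump that loads copper onto secreted enzymes, was at 25.8 ± 2.72 CPM in young mice and 26.7 ± 3.98 in aged mice.

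Among the substrates, 8 of 11 fibrillar collagen chains were lower and 3 did not pass (median -1.22), led by Col3a1 (-2.69, adjusted p = 7.5e-05), Col5a1 (-1.35, adjusted p = 6.0e-04) and Col11a1 (-2.11, adjusted p = 0.00153). Of 5 basement membrane and elastic fibre genes 4 were lower (median -0.84), among them Fbn2 (-1.92, adjusted p = 4.4e-04), Col4a1 (-1.13, adjusted p = 0.00137) and Col4a2 (-0.84, adjusted p = 0.00899). Elastin itself was not called (Eln, -0.19, adjusted p = 0.656).

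Of 4 cross-linkers that do not use lysine aldehydes, 1 was lower, the collagen IV peroxidase Pxdn (-0.63, adjusted p = 0.0454), and the transglutaminases Tgm1, Tgm2 and F13a1 did not pass. Of 8 known inducers of the enzymes 0 were lower, and 3 had a negative log2 fold change (median of the list 0.05). Hif1a was at -0.33 (adjusted p = 0.128) and Ccn2 at -0.60 (adjusted p = 0.159).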

How the data were processed

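Polyadenylated, rRNA-depleted RNA of 10 femurs was sequenced as paired-end reads. Per the labels and the methods, the authors deposited raw read counts for each gene, made with Cutadapt, STAR and featureCounts on the mouse genome GRCm38.p6. The labels name a human build, but the gene identifiers are mouse. A gene length in the same table was used as deposited for levels per kilobase. Annotation release and strand setting were not given in the sources used here. Samples were grouped by their titles.

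Counts were analysed with R 4.3.3 and edgeR 4.0.16 (minimum count 10, minimum total 15, TMM, robust quasi-likelihood fit, no covariate), and p-values were adjusted by Benjamini-Hochberg over all tested genes. Genes at an adjusted p of at most 0.05 were called. A second fit used the Col1a1 count of each library as its size, so its standard errors include the spread of Col1a1. Log2 CPM had a prior count of 2 and ratios one of 0.5. Ratios were permuted exactly over the 252 splits of 10 libraries. Alternatives were other scalings, filters and reference genes, DESeq2 1.42.0, limma-voom (limma 3.58.1), muscle covariates, a replicate block and leaving out each library. The steps were tested on simulated data. The libraries held 31788232 to 45075335 counts, and the fit adds counting error to the spread between mice.

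The members and lists were chosen with earlier results of these data known. Genes were named by a rule: the 10 members, Col1a1 and Col1a2, up to 3 genes of each list with the smallest p, and the 3 genes most like Lox, Loxl2 and Plod2 each. Sparc, Fkbp10, Serpinh1, P3h4, Tmem38b, Bmp1, Pcolce, Fn1, Tll1, Atp7a, Eln, Tgm2, Col2a1, Matn1, Matn3 and Bglap were named outside it, after their values were seen. Copper-site sequences came from GENCODE vM21 transcripts and promoters from RefSeq. The sequence of the Lox site is not shown. A gene of the list of inducers is not reported here. Figures were drawn with Python 3.11.15, pandas 2.3.3 and matplotlib 3.10.9.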

Additional observations from a re-analysis of the deposited data

Results flagged for a closer look

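In young mouse 5, Lox was at 93.9 CPM, whereas the other 4 young mice lay between 180.1 and 194.1 CPM. In the same mouse Plod2 was at 38.3 CPM against 76.3 to 79.8 CPM in the other 4. Loxl3 was at 1.13 per 1000 Col1a1 counts there, against 0.585 to 0.741 in the others, in the young library with the lowest Col1a1 level (27822 CPM). Each of these samples lay outside the rest of its group by Dixon's criterion, which was applied to 40 groups and which chance meets in about 1 group in 20. The library of young mouse 5 had 38549251 counts and 2.22% of them in skeletal muscle markers, both within the range of the other young mice. The source of the difference was not tested.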

How the results depend on the processing

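The count of 4 enzymes lower in aged bone ranged from 3 to 5, and that of enzymes higher stayed at 0, under 21 alternatives. Of these, scaling without Gm26917 and 2 further muscle covariates were chosen after seeing the data. Loxl1, Loxl2 and Plod1 kept their calls under all of them, and Lox under all but the wider muscle list, with Lox, Loxl1, Loxl2 and Plod1 at log2 fold changes of -1.87 to -1.47, -0.92 to -0.70, -2.54 to -2.21 and -0.63 to -0.42. Plod2 ranged from -1.17 to -0.84 and stayed uncalled under 16 of the 21. It also passed with total counts alone (-1.17, adjusted p = 0.0393) and limma-voom (-1.06, adjusted p = 0.0446). Plod3, near 0 throughout, changed sign with total counts alone (-0.14), no filter (-0.0035), the stricter filter (-0.0033), limma-voom (-0.0011) and the replicate block (-0.0052), and ranged from -0.066 to 0.069 when 1 library was left out. Loxl3 ranged from -0.12 to 0.0105 there. Total counts alone moved the median of all genes to -0.16 (917 lower and 285 higher). DESeq2 called 1250 lower and 1546 higher genes, and leaving out young mouse 2, young mouse 4 or aged mouse 3 left 386 and 300, 448 and 366, and 479 and 470.

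Relative to Col1a1, 1 enzyme was lower under 18 alternatives except Sparc as the reference, with 0. The count of 6 higher fell to 3 with each of the 3 muscle covariates and with the replicate block, and was 3 to 6 without single libraries, and the losses were among Loxl4, Plod1 and Colgalt2. It was 5 with limma-voom and 7 with Sparc as the reference, where Loxl1 was gained (0.92, adjusted p = 0.0232). Sparc itself had a log2 fold change of -1.54 in aged bone, against -1.22 for Col1a1. The cause of these changes in count was not tested. Of 432 recomputed fold changes of members and collagen chains, 375 kept direction and call, 39 lost and 7 gained the call, and 11 changed sign. Of 72 recomputed ratios 60 kept it, 9 lost and 3 gained it. No pairing of same-numbered mice was detected (correlations of -0.154 to 0.169), which cannot exclude a shared batch. The replicate block left 4 enzymes lower and 0 higher, and 5 pairs cannot give an exact p under 0.0625 for a ratio, so no ratio could pass the block (adjusted exact p = 0.188 for Loxl4 over Lox and for Plod3 over Plod1) and these 2 losses say nothing about stability.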
